A study of Homo sapiens with 6 samples.

Results

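The genes described here encode carriers that move amino acids across membranes. They were the 41 rows of a count table of 20532 genes whose names fell in the solute carrier (SLC) families SLC1A, SLC7A, SLC36A, SLC38A or SLC43A, together with SLC6A6, SLC6A9, SLC6A15 and SLC3A1. SLC7A11, the cystine importer, was left out of the set and serves only as context. The members were set by gene name, but with earlier results of these data known. Shares of members set beside those of all genes are therefore descriptive. RNA had been taken from ACHN cells, an established human renal carcinoma line that the labels assign to clear cell renal cell carcinoma. In 3 libraries (shDNAJC2 1, 2 and 3) the cells carried a lentiviral short hairpin RNA against DNAJC2, and in the other 3 (shCtrl 1, 2 and 3) they carried a negative control hairpin, so that every library came from lentivirally transduced cells. The series text speaks of stable lines and biological replicates. Whether the libraries of a group came from separate transductions, and which hairpin sequence was used, was not stated in the sources used here, so p-values measured only the spread between these libraries. The study asked how silencing of DNAJC2, a co-chaperone of the ribosome, alters gene expression related to metabolism and ferroptosis.

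Amino acid carriers fall into functional classes named for their substrates. System L exchangers bring in leucine and other large neutral amino acids, the ASC carriers exchange alanine, serine, cysteine and glutamine, system A carriers use the sodium gradient to concentrate small neutral amino acids, and the cationic carriers move arginine and lysine. Several SLC7 proteins are light chains that reach the cell surface only when bound to a heavy chain, SLC3A2 or SLC3A1. In many cell types a shortage of amino acids or another stress raises the transcription factor ATF4, which is known to induce several of these carrier genes, and proliferating tumour cells are known for high SLC7A5 and SLC1A5.

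Total counts per library ranged from 17491462 to 25760291, and a gene with 0 counts could have held up to 3 counts, or 0.115 to 0.179 CPM (counts relative to the library total, scaled with edgeR's TMM factors), counting error only. DNAJC2 itself was at 51.2, 50.4 and 38.5 CPM in shDNAJC2 1, 2 and 3, against 76.7, 69.8 and 86.5 CPM in shCtrl 1, 2 and 3, so the groups did not overlap (log2 fold change −0.74, adjusted p = 0.43 in edgeR's quasi-likelihood test, and −0.65, adjusted p = 0.0080, without shCtrl 3). The control library shCtrl 3 stood apart from shCtrl 1 and shCtrl 2 in many other genes: 12.2% of the 13988 genes tested differed more than 2-fold between shCtrl 3 and shCtrl 1, against 0.179%, 0.0214% and 2.32% between shDNAJC2 1, 2 and 3 and shCtrl 3. Its level lay nearer to the knockdown mean than to shCtrl 1 and 2 for 74.6% of the genes tested, although most of these differences were under 2-fold. The label of shCtrl 3 was thus at odds with many genes but not with the hairpin target, since its DNAJC2 level was the highest of the 6 libraries. Whether cultures or libraries were exchanged could not be checked from the counts, and this limits every value that includes or leaves out shCtrl 3. Of the knockdown libraries, shDNAJC2 3 also stood somewhat apart, with 300 and 238 genes more than 2-fold from shDNAJC2 1 and 2, against 11 between those libraries. Log2 fold changes are given over all 6 libraries and again without shCtrl 3, a library singled out after its values had been seen. Leaving it out removed the control most like the knockdown libraries. The remaining shCtrl 1 and shCtrl 2 had 0 genes more than 2-fold apart. P-values, intervals and calls without shCtrl 3 are therefore descriptive and cannot be taken at face value. Of the 10 markers listed for renal epithelium and renal carcinoma, CDH16 had 0 counts in every library, PAX2 had at most 1 count and PAX8 lay between 2.82 and 4.64 CPM. KRT18 reached 67.5 to 80.1 CPM in shDNAJC2 and 66.5 to 89.8 CPM in shCtrl libraries. KRT8 (30.9 to 41.7 CPM), CDH2 (98.0 to 172 CPM) and MET (22.0 to 35.4 CPM) were also detected, with EPCAM and KRT19 low (0.840 to 2.43 CPM). The summed level of the list, mostly VIM, was 4024, 4132 and 3217 CPM in shDNAJC2 1, 2 and 3, against 3557, 3756 and 4685 CPM in shCtrl 1, 2 and 3. All 6 listed fibroblast and smooth muscle genes were detected, with COL1A1 the most abundant. Their summed level was 878, 921 and 1496 CPM in shDNAJC2 1, 2 and 3, against 3824, 3823 and 992 CPM in shCtrl 1, 2 and 3, an order of libraries roughly opposite to that of the transporters below, and its part in their differences was not tested. Summed blood and immune markers, nearly all CD68, were at 72.0 to 81.5 CPM in shDNAJC2 and 80.4 to 94.4 CPM in shCtrl libraries, with CD3E at 0 throughout, and endothelial markers, nearly all TEK, at 56.0 to 57.9 CPM in shDNAJC2 and 57.8 to 72.3 CPM in shCtrl libraries, with CDH5 at 0. The endothelial gene KDR was at 2.19, 2.57 and 1.79 CPM in shDNAJC2 1, 2 and 3 and 0.287, 0.305 and 3.01 CPM in shCtrl 1, 2 and 3, with shCtrl 3 highest as for many transporters. The more abundant TEK went the other way, at 53.9, 50.8 and 49.9 CPM in shDNAJC2 1, 2 and 3 and 65.0, 71.2 and 52.6 CPM in shCtrl 1, 2 and 3. PECAM1 and VWF were highest in knockdown libraries (3.86 CPM in shDNAJC2 3 and 0.718 CPM in shDNAJC2 2). The part of KDR in the transporter differences was not tested either. In bulk RNA, fewer cells of a kind and less RNA per cell cannot be told apart.

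Amino acid transporter mRNA was more abundant in all 3 knockdown libraries than in shCtrl 1 and 2, and most abundant of all in shCtrl 3. The 41 members together made up 6096, 6228 and 4405 CPM in shDNAJC2 1, 2 and 3, against 2058, 2099 and 6758 CPM in shCtrl 1, 2 and 3. Of the 41 genes, 30 passed the filter on low counts and were tested. Over all 6 libraries 24 of the 30 had a positive log2 fold change (80.0%, against 47.7% of all genes tested) and 6 a negative one (20%, against 52.3%), and their median was 0.42, against −0.02 for all genes. None of the 30 passed after adjustment over all genes (smallest adjusted p = 0.43, edgeR), where 0% of genes were called in either direction. Limma-voom also called 0 of the 30. DESeq2 called 0 of the 18 members to which it gave an adjusted p (smallest 0.070, for SLC7A2) and gave none to the other 12. At an unadjusted p under 0.05, 6 members were higher, where 4% of all genes were, and 3 were lower, where 7.33% were. Without shCtrl 3, 20 of the 30 rose (17.8% of all genes did) and 3 fell (17% of all genes did) at an adjusted p under 0.05, with a median of 0.73. Of those, 13 rose at least 2-fold (4.44% of all genes) and 2 fell at least 2-fold (5.27%).

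**Figure D1:**
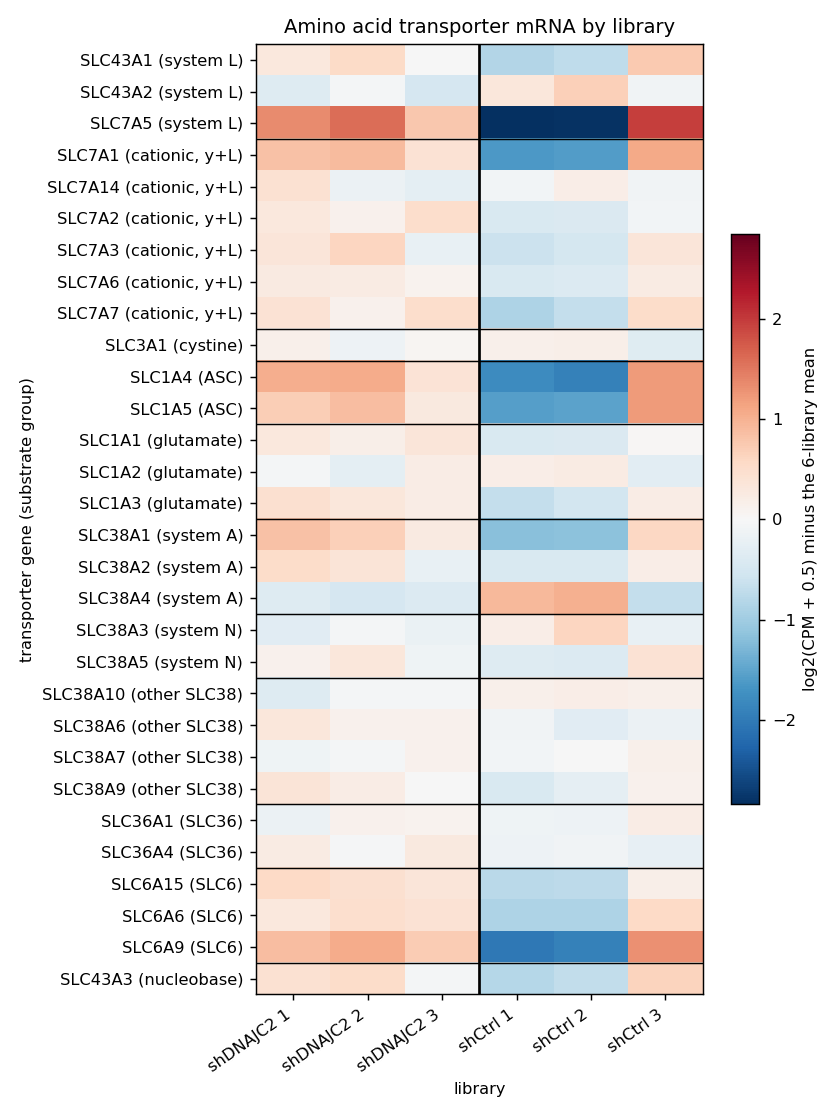
Heat map of the 30 tested transporter genes (rows, by substrate group) in the 6 libraries (columns), coloured by log2(CPM + 0.5) minus the mean of that gene over the 6 libraries. The columns of shCtrl 1 and shCtrl 2 are blue for most genes, the 3 shDNAJC2 columns and shCtrl 3 are red for most, and the strongest colours belong to SLC7A5, SLC6A9, SLC1A4, SLC7A1 and SLC1A5.

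Library by library, shCtrl 1 and shCtrl 2 both lay below all 4 other libraries for 19 of the 30 members (63.3%, against 29.6% of all genes tested) and above all 4 others for 3 (10.0%, against 28.9%). Between shDNAJC2 1 and shCtrl 1, 13 members differed more than 2-fold (43.3%, against 12.1% of all genes), and between shCtrl 3 and shCtrl 1, 11 did (36.7%, against 12.2%). No member differed that much between shDNAJC2 1 and shCtrl 3 (0.179% of all genes did) or between shDNAJC2 2 and shCtrl 3 (0.0214%), and 1 did between shDNAJC2 3 and shCtrl 3 (3.33%, against 2.32%). The level in shCtrl 3 lay nearer to the knockdown mean than to shCtrl 1 and 2 for 26 members (86.7%, against 74.6%), and above every knockdown library for 13 (43.3%, against 29.8%). Of the knockdown libraries, shDNAJC2 3 was the lowest for 17 of the 30 members (56.7%, against 39.4% of all genes tested).

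Among the system L genes, SLC7A5 had the largest log2 fold change of all 30 tested members without shCtrl 3. SLC7A5 (ENSG00000103257, protein coding, chromosome 16, 87830023 to 87869488 on GRCh38) encodes LAT1, the light chain that exchanges intracellular glutamine for leucine and other essential amino acids. SLC7A5 reached 1061, 1252 and 711 CPM in shDNAJC2 1, 2 and 3, against 57.9, 59.2 and 1635 CPM in shCtrl 1, 2 and 3. The knockdown libraries thus stood far above shCtrl 1 and shCtrl 2 and below shCtrl 3. Its log2 fold change was 0.79 over all 6 libraries (95% interval −2.13 to 3.71, adjusted p = 0.75, edgeR) and 4.11 without shCtrl 3 (3.54 to 4.68, adjusted p = 4.15e-05). SLC7A5 alone took 17.4% (95% Wilson interval 17.2 to 17.6%), 20.1% (19.9 to 20.4%) and 16.1% (15.9 to 16.4%) of the counts of the 41 members in shDNAJC2 1, 2 and 3, against 2.81% (2.67 to 2.96%), 2.82% (2.69 to 2.96%) and 24.2% (24.0 to 24.4%) in shCtrl 1, 2 and 3. These intervals cover counting error only, and those of the 3 knockdown libraries do not overlap one another. SLC7A5 has processed pseudogene copies, and how the authors' counting treated such reads was not given.

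The other tested system L genes had smaller log2 fold changes, in opposite directions. SLC43A1, which encodes LAT3, a facilitative carrier of branched-chain amino acids, was at 24.6, 28.9 and 19.5 CPM in shDNAJC2 1, 2 and 3 and 10.8, 11.7 and 33.5 CPM in shCtrl 1, 2 and 3. SLC43A1 followed SLC7A5 in the order of libraries, on a smaller scale, with a log2 fold change of 0.38 over all 6 libraries, and rose by 1.11 without shCtrl 3 (adjusted p = 0.0024, edgeR). SLC43A2, the related carrier LAT4, was at 6.52, 8.26 and 6.05 CPM in shDNAJC2 1, 2 and 3 and 10.9, 14.1 and 8.08 CPM in shCtrl 1, 2 and 3. Here the knockdown libraries were low, and shCtrl 3 lay within their range (log2 fold change −0.67, unadjusted p = 0.029, adjusted p = 0.43 over all 6 libraries). Without shCtrl 3 it fell by 0.85. SLC7A8, the LAT2 light chain of polarised kidney epithelium, had 2 to 9 counts in shDNAJC2 and 2 to 5 counts in shCtrl libraries and was not tested.

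Because LAT1 works only with its heavy chain, the partner gene SLC3A2 was set beside it. SLC3A2 was at 1749, 1998 and 1039 CPM in shDNAJC2 1, 2 and 3, against 236, 235 and 2312 CPM in shCtrl 1, 2 and 3, with shCtrl 3 highest and shDNAJC2 3 the lowest of the knockdown libraries, as for SLC7A5 (log2 fold change 0.78 over all 6 and 2.77 without shCtrl 3). Levels of different genes were compared as CPM per kilobase of annotated exon. On that scale SLC7A5 stood at 0.66, 0.68 and 0.75 of SLC3A2 in shDNAJC2 1, 2 and 3, against 0.27, 0.28 and 0.77 in shCtrl 1, 2 and 3. Of the summed per-kilobase level of the 6 light chains that pair with SLC3A2 (SLC7A5, SLC7A6, SLC7A7, SLC7A8, SLC7A10 and SLC7A11), SLC7A5 made up 68.9%, 74.3% and 65.8% in shDNAJC2 1, 2 and 3 and 40.4%, 41.8% and 80.2% in shCtrl 1, 2 and 3. SLC7A6 made up 4.41%, 3.93% and 5.62% in the knockdown libraries, against 29.4%, 30.4% and 3.29% in the controls. An opposite-strand gene shares 44.4% of the exon bases of SLC7A6, so its share and the light chain sum are uncertain. SLC7A11 itself was at 826, 740 and 618 CPM in shDNAJC2 1, 2 and 3 and 84.2, 75.3 and 673 CPM in shCtrl 1, 2 and 3, and its part of the light chain sum varied less, at 21.6 to 28.1% in shDNAJC2 and 16.2 to 28.9% in shCtrl libraries.

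Upstream sequence was examined for 31 of the 41 members, those found in a RefSeq table of promoters (GRCh38.p14). Each window ran from 250 bases before to 50 after the first start listed for the gene, and no other start was searched. The letters TGATGNAA, a form of the element bound by ATF4 with C/EBP proteins, were searched on both strands, as was CACGTG, the E-box bound by MYC and related factors, which reads the same on both strands. TGATGNAA was present in 3 of the 31 windows (9.68%), against 3.67% of all 27305 promoters and 1.77% of the 10963 windows of tested genes. CACGTG was present in 5 of the 31 (16.1%), against 7.43% of all promoters and 10.0% of those of tested genes, namely SLC7A5, SLC43A1, SLC38A5, SLC38A7 and SLC1A7. The 31 windows include members that were not tested. Among the 22 windows of tested members, 3 held TGATGNAA (13.6%) and 4 held CACGTG (18.2%). No member held both in the window searched. Of the 9 windows of members that rose at least 2-fold without shCtrl 3, 2 held TGATGNAA and 2 held CACGTG, against 1 and 2 of the 13 windows of other tested members. A match describes letters only and marks no binding site. The bases upstream of the starts of SLC7A5 and SLC43A1 (the 2 system L genes that rose) and of SLC1A3 are shown with the motif in capitals, and for SLC38A1 and SLC7A1, whose match spans or follows the start, 30 bases around it. The RefSeq starts of SLC7A5, SLC43A1, SLC1A3 and SLC38A1 are not the outer gene ends of GENCODE 29. Part of the stretch shown for SLC43A1 and all of that for SLC38A1 lie inside the GENCODE gene. The stretch shown for SLC1A3 ends at 36596587, well upstream of the GENCODE gene start at 36606355. Which start these cells use was not tested.
SLC7A5 (GRCh38.p14, chr16:87869508-87869757, minus strand): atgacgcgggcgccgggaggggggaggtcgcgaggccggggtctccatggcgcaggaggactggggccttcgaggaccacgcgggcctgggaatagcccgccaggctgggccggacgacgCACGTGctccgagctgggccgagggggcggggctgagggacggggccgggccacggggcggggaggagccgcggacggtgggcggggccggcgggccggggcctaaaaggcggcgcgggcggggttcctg
SLC43A1 (GRCh38.p14, chr11:57515703-57515952, minus strand): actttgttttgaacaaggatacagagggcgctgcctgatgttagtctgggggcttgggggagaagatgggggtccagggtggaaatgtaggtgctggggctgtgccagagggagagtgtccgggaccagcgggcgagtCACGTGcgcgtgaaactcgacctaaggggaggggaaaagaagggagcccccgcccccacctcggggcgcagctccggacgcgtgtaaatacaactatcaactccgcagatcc
SLC1A3 (GRCh38.p14, chr5:36596338-36596587, plus strand): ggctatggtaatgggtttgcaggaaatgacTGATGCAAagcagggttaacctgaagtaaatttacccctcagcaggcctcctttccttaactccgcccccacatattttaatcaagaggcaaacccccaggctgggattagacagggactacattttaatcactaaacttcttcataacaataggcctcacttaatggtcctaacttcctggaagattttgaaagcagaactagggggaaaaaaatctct
SLC38A1 (GRCh38.p14, chr12:46266502-46266531, minus strand): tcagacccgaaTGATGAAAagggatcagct
SLC7A1 (GRCh38.p14, chr13:29595663-29595692, minus strand): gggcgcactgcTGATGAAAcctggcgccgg
The CACGTG of SLC7A5 began 130 bases before the listed start and that of SLC43A1 112 bases before it. TGATGCAA in SLC1A3 began 220 bases before the start, and TGATGAAA began 4 bases before the start in SLC38A1 and at base 8 after it in SLC7A1. The genes with a match ranged widely in response: without shCtrl 3 SLC7A5 rose by 4.11, SLC7A1 by 2.35 and SLC38A1 by 1.79, while SLC38A7, with a CACGTG, had a log2 fold change of 0.04.

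Both ASC genes shared the pattern of SLC7A5. SLC1A5 (chromosome 19, 46774883 to 46788594) encodes ASCT2, a main route for glutamine into tumour cells. SLC1A5 reached 955, 1075 and 716 CPM in shDNAJC2 1, 2 and 3, against 199, 203 and 1361 CPM in shCtrl 1, 2 and 3. SLC1A4 (chromosome 2, 64988477 to 65023865), the alanine, serine and cysteine exchanger ASCT1, was at 122, 124 and 77.5 CPM in shDNAJC2 1, 2 and 3, against 16.8, 15.3 and 138 CPM in shCtrl 1, 2 and 3. In each gene shCtrl 3 was the highest of the 6 libraries, so the groups overlapped, with a fitted change (log2) of 0.64 for SLC1A5 (95% interval −1.14 to 2.42) and 0.93 for SLC1A4 (−1.06 to 2.92). Without shCtrl 3 SLC1A5 rose by 2.19 (adjusted p = 0.000145, edgeR) and SLC1A4 by 2.75 (adjusted p = 0.000125). An annotated antisense transcript covered 23.4% of the exon bases of SLC1A5, and since the strand setting of the counting was not given, its reads could not be separated.

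**Figure D2:**
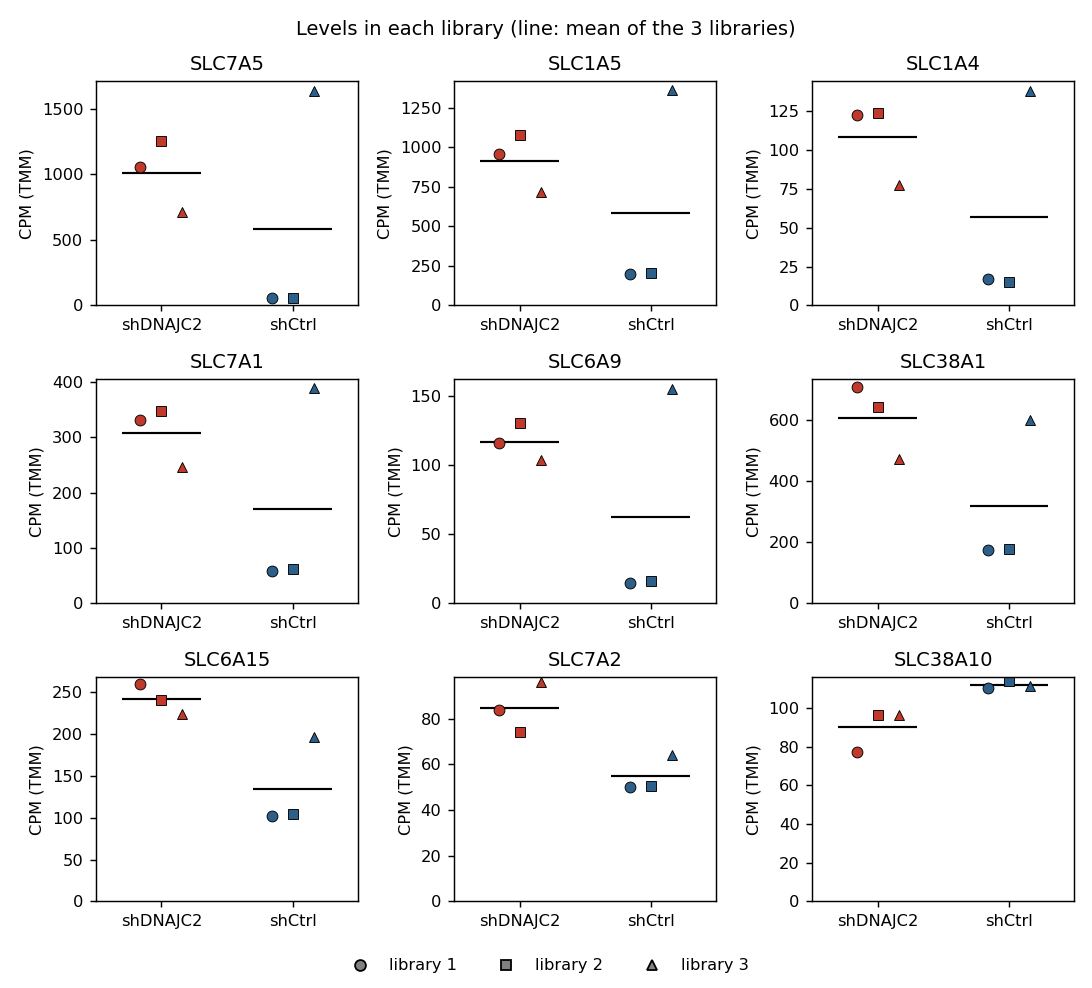
Levels of 9 transporter genes in each library, as TMM-scaled CPM on linear axes that start at 0; circles, squares and triangles mark libraries 1, 2 and 3 of each group, and the line is the mean of the 3 libraries. For SLC7A5, SLC1A5, SLC1A4, SLC7A1 and SLC6A9 the shCtrl 3 triangle lies above all shDNAJC2 points, for SLC38A1 among them, whereas for SLC6A15, SLC7A2 and SLC38A10 the 3 shDNAJC2 points are separated from the 3 shCtrl points.

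The glutamate and aspartate carriers of the SLC1 family were expressed at low levels, and 2 of the 3 that were tested separated the groups. SLC1A3 (GLAST) was at 14.4, 13.2 and 12.016 CPM in shDNAJC2 1, 2 and 3 and at 6.35, 7.10 and 12.009 CPM in shCtrl 1, 2 and 3, so shDNAJC2 3 and shCtrl 3 were almost level and the separation rested on a difference far below counting error. SLC1A1 (EAAT3), which in kidney takes up filtered glutamate, was at 1.51, 1.32 and 1.55 CPM in shDNAJC2 1, 2 and 3 against 0.697, 0.726 and 1.17 CPM in shCtrl 1, 2 and 3. Its separation rested on 22 counts in shDNAJC2 2 and 28 counts in shCtrl 3, a gap within counting error. The log2 fold change was 0.63 for SLC1A3 (unadjusted p = 0.045) and 0.76 for SLC1A1 (unadjusted p = 0.038), with an adjusted p of 0.43 for each in edgeR. Without shCtrl 3 SLC1A3 rose by 0.97 and SLC1A1 by 1.04. SLC1A2, the main glutamate carrier of astrocytes, was at 2.27 to 3.34 CPM in shDNAJC2 and 2.22 to 3.40 CPM in shCtrl libraries (log2 difference −0.10 over all 6 and −0.26 without shCtrl 3, neither past the threshold). SLC1A7 had 0 counts in each shDNAJC2 library and 7, 7 and 1 counts in shCtrl 1, 2 and 3, and SLC1A6 had 1 count in all.

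Of the cationic carriers, SLC7A1 overlapped between the groups through shCtrl 3 and SLC7A2 did not overlap. SLC7A1 (chromosome 13, 29509410 to 29595688) encodes CAT1, the general importer of arginine and lysine. SLC7A1 reached 331, 347 and 245 CPM in shDNAJC2 1, 2 and 3, against 59.4, 61.4 and 388 CPM in shCtrl 1, 2 and 3 (log2 fold change 0.86, 95% interval −0.88 to 2.59, and 2.35 without shCtrl 3). Its relative SLC7A2 (chromosome 8, 17497088 to 17570573), which encodes CAT2, was at 83.9, 74.4 and 96.0 CPM in shDNAJC2 1, 2 and 3, against 50.2, 50.6 and 64.0 CPM in shCtrl 1, 2 and 3. All 3 knockdown libraries were above all 3 controls for SLC7A2, and shCtrl 3 lay nearer to the other controls. SLC7A2 averaged 84.8 ± 10.8 CPM in shDNAJC2 and 54.9 ± 7.84 CPM in shCtrl libraries (SD, n = 3 each), a difference of 0.63 on the log2 scale (95% interval 0.28 to 0.98) with the smallest p of the 30 members (unadjusted p = 0.0040, adjusted p = 0.43, edgeR). Without shCtrl 3 SLC7A2 rose by 0.76 (adjusted p = 0.0025), and leaving out any library kept its log2 fold change between 0.54 and 0.76. With 3 libraries against 3, a two-sided exact permutation test of a single gene cannot give a p below 0.1.

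The y+L light chains, which export arginine in exchange for a neutral amino acid and sodium, differed moderately. SLC7A6 was at 109, 106 and 97.2 CPM in shDNAJC2 1, 2 and 3 and 67.5, 68.9 and 107 CPM in shCtrl 1, 2 and 3, with a log2 difference of 0.36 over all 6, and rose by 0.61 without shCtrl 3. The opposite-strand gene SLC7A6OS shares 44.4% of the exon bases of SLC7A6 and was counted at 70.6 to 80.9 CPM in shDNAJC2 and 54.8 to 77.8 CPM in shCtrl libraries, so the value of SLC7A6 is uncertain. SLC7A7, whose loss causes lysinuric protein intolerance, was at 4.59, 3.71 and 4.93 CPM in shDNAJC2 1, 2 and 3 against 1.60, 1.91 and 4.98 CPM in shCtrl 1, 2 and 3, with a log2 difference of 0.65 over all 6, and rose by 1.34 without shCtrl 3. SLC7A14, a lysosomal member, was at 8.77, 5.56 and 5.17 CPM in shDNAJC2 1, 2 and 3 and 5.99, 7.26 and 5.90 CPM in shCtrl 1, 2 and 3, with overlapping groups, and the log2 difference was 0.03 over all 6 libraries and −0.03 without shCtrl 3. SLC7A3, which encodes CAT3, had 9, 11 and 4 counts in shDNAJC2 1, 2 and 3 and 0, 1 and 11 counts in shCtrl 1, 2 and 3. The 24 counts of the knockdown libraries stood against 1 count in shCtrl 1 and 2, a ratio of 19.9 after scaling for depth with an exact counting interval of 3.24 to 818. SLC7A4 had 2 counts in each shCtrl library and 0 in each shDNAJC2 library.

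System A carriers held the most abundant transporter mRNA per kilobase in shCtrl 1 and shCtrl 2. SLC38A1 (SNAT1, chromosome 12, 46183063 to 46270017) was at 706, 640.3 and 473 CPM in shDNAJC2 1, 2 and 3, against 174, 177 and 599 CPM in shCtrl 1, 2 and 3. The value of shCtrl 3 lay inside the knockdown range (log2 fold change 0.94, 95% interval −0.26 to 2.13, and 1.79 without shCtrl 3). SLC38A2 (SNAT2), the system A carrier known for its induction on amino acid starvation, was at 1629, 1457 and 974 CPM in shDNAJC2 1, 2 and 3, against 834, 842 and 1282 CPM in shCtrl 1, 2 and 3. The shCtrl 3 value again lay inside the knockdown range (log2 difference 0.46 over all 6), and SLC38A2 rose by 0.70 without shCtrl 3 (adjusted p = 0.029, edgeR). SLC38A4 (SNAT4) went the other way, at 2.87, 2.63 and 2.82 CPM in shDNAJC2 1, 2 and 3 against 7.71, 8.25 and 2.22 CPM in shCtrl 1, 2 and 3. Its log2 fold change was −1.12 (unadjusted p = 0.049, adjusted p = 0.43) and, without shCtrl 3, it fell by 1.51 (adjusted p = 0.000515), the largest fall of the 30 members.

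The system N glutamine carriers also split in direction. SLC38A5 (SNAT5) was at 64.6, 74.3 and 54.5 CPM in shDNAJC2 1, 2 and 3 and 46.0, 44.6 and 78.6 CPM in shCtrl 1, 2 and 3, with a log2 difference of 0.19 over all 6, and rose by 0.51 without shCtrl 3. SLC38A3 (SNAT3), the glutamine carrier of liver and kidney, had only 6, 8 and 10 counts in shDNAJC2 1, 2 and 3 against 16, 28 and 9 counts in shCtrl 1, 2 and 3, with a log2 difference of −0.83 over all 6, and fell by 1.12 without shCtrl 3 (adjusted p = 0.049, edgeR).

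The 6 tested genes among the remaining SLC38 and the proton-coupled SLC36 carriers had log2 fold changes between −0.31 and 0.40 over all 6 libraries. SLC38A10 was at 77.0, 96.4 and 96.6 CPM in shDNAJC2 1, 2 and 3, against 110.3, 114 and 111 CPM in shCtrl 1, 2 and 3. It was the only tested member that was lower in all 3 knockdown libraries than in all 3 controls (8.43% of all genes were), at 90.0 ± 11.2 CPM in shDNAJC2 and 112 ± 2.06 CPM in shCtrl libraries (SD, n = 3 each), and the log2 difference of −0.31 (unadjusted p = 0.032, adjusted p = 0.43) did not pass without shCtrl 3 either (adjusted p = 0.066, edgeR). SLC38A6 was at 20.04, 17.3 and 17.3 CPM in shDNAJC2 1, 2 and 3 and 14.6, 12.6 and 14.1 CPM in shCtrl 1, 2 and 3, without overlap (log2 fold change 0.40, unadjusted p = 0.019), and rose by 0.42 without shCtrl 3. SLC38A9, the lysosomal arginine sensor that signals to mTORC1, was at 27.5, 24.5 and 20.9 CPM in shDNAJC2 1, 2 and 3 and 15.7, 17.5 and 23.2 CPM in shCtrl 1, 2 and 3, with a log2 difference of 0.37 over all 6, and rose by 0.55 without shCtrl 3. SLC38A7, which releases glutamine and asparagine from lysosomes, was at 29.2, 30.4 and 34.4 CPM in shDNAJC2 1, 2 and 3 and 30.1, 31.2 and 35.2 CPM in shCtrl 1, 2 and 3. The groups overlapped almost fully, and its log2 difference was −0.04 over all 6 (95% interval −0.32 to 0.25) and 0.04 without shCtrl 3. SLC36A4 was at 34.3, 28.4 and 35.1 CPM in shDNAJC2 1, 2 and 3 and 26.4, 27.3 and 24.5 CPM in shCtrl 1, 2 and 3, without overlap (log2 fold change 0.32, unadjusted p = 0.037, adjusted p = 0.43), and did not pass without shCtrl 3 either (0.28, adjusted p = 0.11). The gap between shDNAJC2 2 (474 counts) and shCtrl 2 (715 counts) was within counting error after scaling for depth. The lysosomal proton-coupled carrier SLC36A1 was at 13.9, 17.1 and 16.9 CPM in shDNAJC2 1, 2 and 3 and 14.6, 14.4 and 18.4 CPM in shCtrl 1, 2 and 3, and its log2 difference was 0.02 over all 6 (95% interval −0.36 to 0.40) and 0.15 without shCtrl 3.

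All 3 SLC6 members rose at least 2-fold without shCtrl 3. SLC6A9 (GlyT1, chromosome 1, 43991500 to 44031467), which imports glycine, was at 116, 130 and 104 CPM in shDNAJC2 1, 2 and 3, against 15.0, 16.1 and 155 CPM in shCtrl 1, 2 and 3. Its log2 difference over all 6 libraries was 0.91 (95% interval −1.17 to 2.99), and without shCtrl 3 it rose by 2.91 (adjusted p = 1.09e-05, edgeR). SLC6A6 (TauT), the taurine carrier, was at 200.5, 228 and 219.6 CPM in shDNAJC2 1, 2 and 3 and at 89.0, 89.7 and 242 CPM in shCtrl 1, 2 and 3, with a log2 difference of 0.62 over all 6, and rose by 1.28 without shCtrl 3. SLC6A15 (B0AT2, chromosome 12, 84859488 to 84913615), which imports branched-chain amino acids and proline, was at 260.2, 240.4 and 223 CPM in shDNAJC2 1, 2 and 3, against 102, 105 and 197 CPM in shCtrl 1, 2 and 3. For SLC6A15 the groups did not overlap although shCtrl 3 was far above the other controls. Its means were 241 ± 18.4 CPM in shDNAJC2 and 135 ± 53.6 CPM in shCtrl libraries (SD, n = 3 each), and the log2 difference was 0.84 (95% interval 0.21 to 1.47, unadjusted p = 0.016, adjusted p = 0.43) over all 6 libraries and 1.22 without shCtrl 3 (adjusted p = 0.000191, edgeR).

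SLC43A3, which despite its family carries purine nucleobases, was at 176, 188 and 125 CPM in shDNAJC2 1, 2 and 3 and 74.4, 80.2 and 205 CPM in shCtrl 1, 2 and 3, with a log2 difference of 0.45 over all 6, and rose by 1.08 without shCtrl 3. Another protein-coding gene model on the same strand shares 29.9% of its exon bases. SLC3A1, the heavy chain of the kidney cystine carrier, was at 12.3, 9.87 and 11.4 CPM in shDNAJC2 1, 2 and 3 and 12.2, 12.4 and 8.66 CPM in shCtrl 1, 2 and 3, with a log2 difference of 0.01 (95% interval −0.43 to 0.46) that was −0.13 without shCtrl 3. SLC3A1 shares 29.4% of its exon bases with the opposite-strand gene PREPL and 26.9% with another protein-coding model on its own strand, so its value is uncertain. Its light chain SLC7A9 had 0 to 6 counts per library, too few to test, and SLC7A10, which carries small neutral amino acids, had 0 to 9. SLC7A13, SLC38A8 and SLC36A2 had 0 counts in all 6 libraries, SLC36A3 had 1 count in all and SLC38A11 at most 1 per library. With SLC7A8, SLC7A4, SLC1A6 and SLC1A7 these made up the 11 members that were not tested.

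The 6 members that were higher in every knockdown library than in every control were SLC7A2, SLC1A1, SLC1A3, SLC38A6, SLC36A4 and SLC6A15 (6 of 30, where 7.33% of all genes tested did so). They belong to 5 substrate groups and had log2 fold changes of 0.32 to 0.84 over all 6 libraries. None of them was among the 6 members with the largest rise without shCtrl 3 apart from SLC7A3 (SLC7A5, SLC6A9, SLC1A4, SLC7A1, SLC1A5 and SLC38A1), which all overlapped between the groups through shCtrl 3. The separations of SLC1A3, SLC1A1 and SLC36A4 lay within counting error. The 6 of 30 thus rests in part on gaps that the counts do not resolve. The genes behind the 7.33% were not examined for such gaps.

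**Figure D3:**
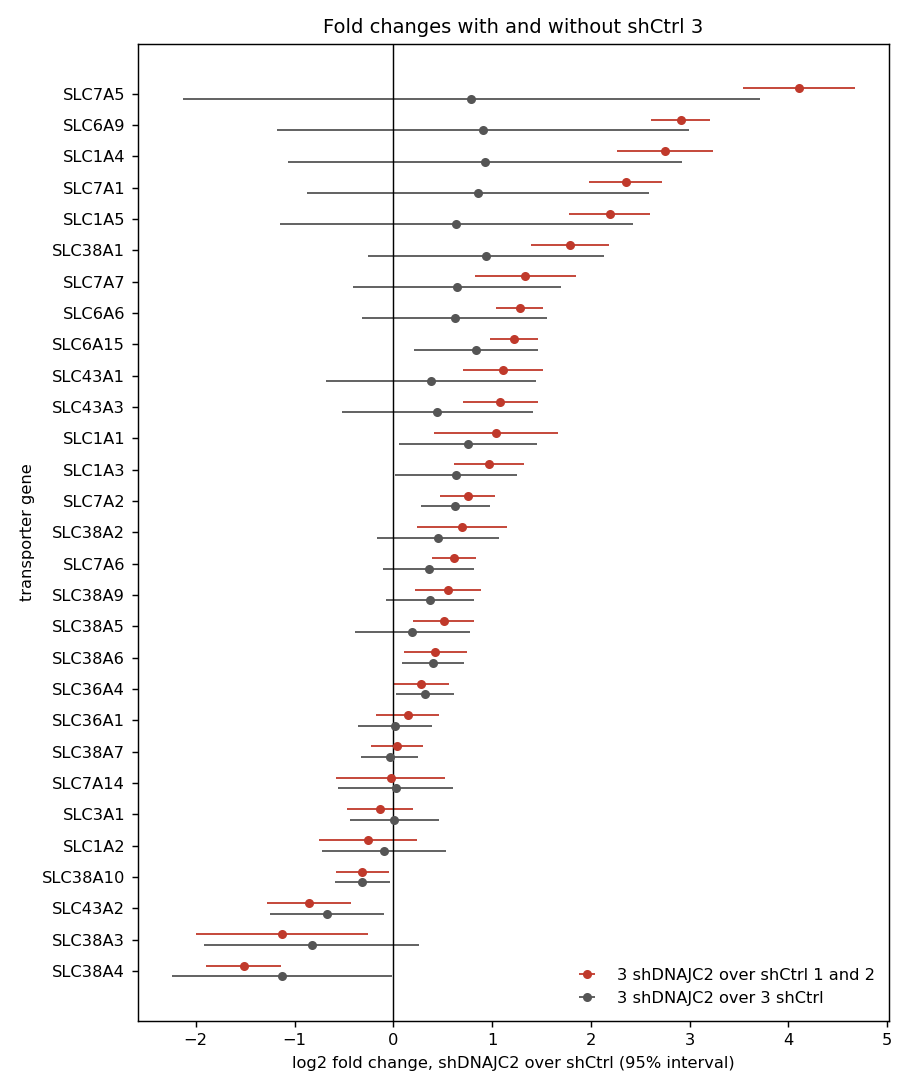
Log2 fold changes of 29 tested transporter genes, shDNAJC2 over shCtrl, with 95% intervals from edgeR; the upper (red) point of each gene leaves out shCtrl 3 and the lower (grey) point uses all 6 libraries. SLC7A3 is left out because of its few counts. The red points reach 4.11 for SLC7A5 while the grey intervals of the genes with the largest red values span 0.

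Per kilobase of annotated exon, the make-up of transporter mRNA differed as well as its amount. The members summed to 1086, 1142 and 783 CPM per kilobase in shDNAJC2 1, 2 and 3, against 333, 339 and 1293 in shCtrl 1, 2 and 3. SLC1A5 ranked first in all 3 knockdown libraries and in shCtrl 3, whereas SLC38A2 ranked first in shCtrl 1 and shCtrl 2. SLC7A5 ranked 3, 2 and 2 in shDNAJC2 1, 2 and 3 and 6, 6 and 2 in shCtrl 1, 2 and 3. System L carriers made up 21.3%, 23.9% and 19.9% of the per-kilobase sum in shDNAJC2 1, 2 and 3, against 4.91%, 5.06% and 27.4% in shCtrl 1, 2 and 3. The share of system A was 29.3%, 24.98% and 24.95% in shDNAJC2 1, 2 and 3, against 43.8%, 43.4% and 19.7% in shCtrl 1, 2 and 3, although its per-kilobase level was higher in every knockdown library (195 to 318) than in shCtrl 1 and 2 (146 and 147). ASC carriers made up 28.0%, 29.8% and 28.9% in the knockdown libraries and 18.7%, 18.6% and 33.1% in the controls. SLC7A1 moved to rank 5 in each knockdown library and shCtrl 3, against rank 11 in shCtrl 1 and shCtrl 2.

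**Figure D4:**
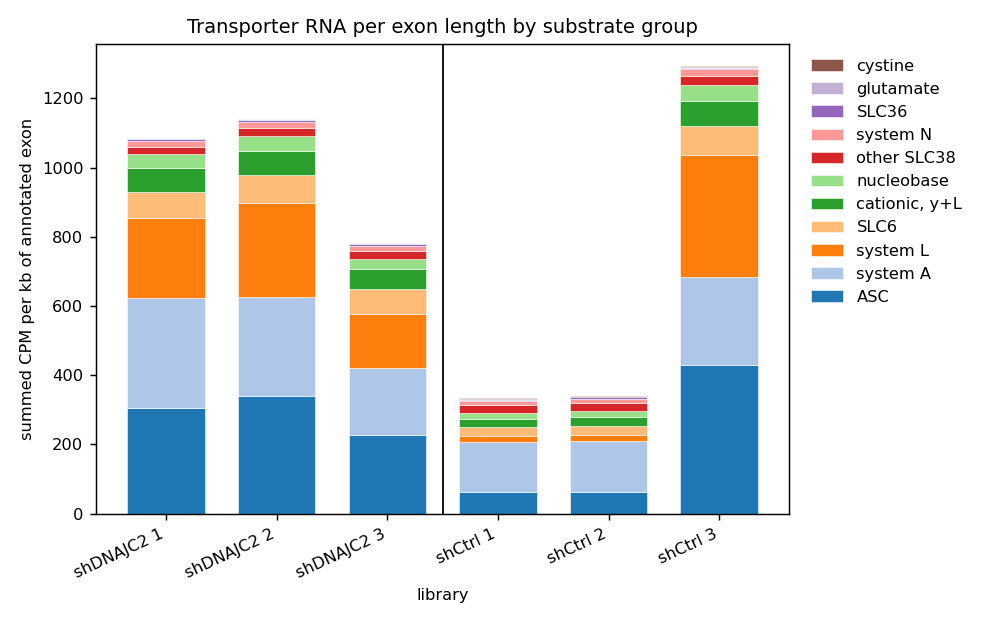
Stacked bars of transporter mRNA in each library, as summed CPM per kilobase of annotated exon and split by substrate group. The bars of the 3 shDNAJC2 libraries reach 783 to 1142, those of shCtrl 1 and shCtrl 2 333 and 339, and that of shCtrl 3 1293, and the system L part (orange) is narrow only in shCtrl 1 and shCtrl 2.

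Genes around the transporters were read from 4 lists. Of 17 regulators and indicators of the amino acid response, 15 had a positive log2 fold change over all 6 libraries (47.7% of all genes tested did) and 0 passed after adjustment. Without shCtrl 3, 13 rose (17.8% of all genes did) and 1 fell (17% did). ATF4 was at 952, 1032 and 712 CPM in shDNAJC2 1, 2 and 3, against 259, 275 and 1082 CPM in shCtrl 1, 2 and 3, an order of libraries like that of SLC7A5 (log2 difference 0.74 over all 6 and 1.76 without shCtrl 3). CEBPG, a partner of ATF4 on DNA, differed by 0.92 over all 6 and rose by 1.96 without shCtrl 3. DDIT3, the stress factor CHOP, differed by 0.75 and rose by 1.74, and the asparagine synthetase gene ASNS differed by 1.36 and rose by 4.21. EIF2AK2, the double-stranded RNA kinase PKR, differed by −0.82 and fell by 1.21. SESN2, a leucine-sensing sestrin of this list named after its values were seen, was at 143, 161 and 72.7 CPM in shDNAJC2 1, 2 and 3 and 15.8, 16.99 and 176 CPM in shCtrl 1, 2 and 3, and differed by 0.85 over all 6 and rose by 2.94 without shCtrl 3. Among the other plasma membrane carriers and partner subunits 5 of 15 were tested, and 3 of these rose without shCtrl 3, where 17.8% of all genes did. They were SLC7A11 (1.39 over all 6 and 3.19 without shCtrl 3), SLC3A2 and the creatine carrier gene SLC6A8 (0.07 over all 6 and 0.37 without shCtrl 3, named after its values were seen). SLC15A2 and SLC16A10, both under 1 CPM in every library, did not pass.

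Of 18 tested carriers of the mitochondrion and lysosome, 5 had a positive and 13 a negative log2 fold change over all 6 libraries, where 47.7% and 52.3% of all genes did. Without shCtrl 3, 2 rose and 3 fell, where 17.8% of all genes rose and 17% fell, so neither count was above that background. The mitochondrial basic amino acid carrier SLC25A29 was at 29.5, 37.3 and 45.8 CPM in shDNAJC2 1, 2 and 3 against 62.8, 65.2 and 44.8 CPM in shCtrl 1, 2 and 3 (log2 difference −0.62 over all 6), and fell by 0.76 without shCtrl 3. The lysosomal peptide carrier SLC15A3 differed by −0.96 over all 6 and fell by 1.24 without shCtrl 3, and the aspartate-glutamate carrier SLC25A12 differed by −0.32 and fell by 0.53. SLC25A38 (0.40 over all 6) and SLC66A1 (0.09), named after their values were seen, rose by 0.85 and 0.47 without shCtrl 3. SLC25A44, which carries branched-chain amino acids, did not pass in either fit (−0.24 over all 6 and −0.30 without shCtrl 3).

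Of 23 other genes of amino acid sensing for mTORC1, 11 had a positive and 12 a negative log2 fold change over all 6 libraries. Among all genes tested 47.7% were positive and 52.3% negative, so this split was close to that background. Without shCtrl 3, 2 rose and 2 fell, both below the shares of all genes (17.8% and 17%). Those that fell were CASTOR2, an arginine sensor paralogue (−0.98 over all 6 and −1.27 without shCtrl 3), and the sestrin gene SESN3 (−1.11 and −1.51). Those that rose, named after their values were seen, were FLCN (0.12 over all 6 and 0.38 without shCtrl 3) and FNIP1 (0.36 and 0.63). RPTOR and LAMTOR5 did not pass in either fit.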

How the data were processed

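Per the labels' protocols, mRNA was enriched and sequenced in read pairs on an Illumina instrument. The authors deposited raw gene counts in 1 table, without normalization, with 1 column for each library that was matched by its title. Per the submitters' processing notes, the build was GRCh38 (hg38). Aligner, counter, annotation and strand handling: not given in the sources used here. Genes were compared with edgeR 4.0.16 (R 4.3.3) by its two-sided quasi-likelihood test after TMM scaling and filterByExpr, with group as the only term. Benjamini-Hochberg adjustment ran over all 13988 genes tested (14201 without shCtrl 3), at a threshold of 0.05. Log2 fold changes are shDNAJC2 over shCtrl. Alternatives were DESeq2 1.42.0, limma-voom (limma 3.58.1), other scalings and filters, a replicate block and leaving out each library. Scripts were tested on simulated data. Exon lengths, merged over all transcripts, and coordinates came from GENCODE 29. The members, gene lists and tests were chosen with earlier results of these data known. Values of every library were printed for tested members with a mean of at least 5 CPM, an unadjusted p under 0.05, or an adjusted p under 0.05 without shCtrl 3, and up to 4 genes of each context list were named by smallest p, plus SLC3A2, SLC7A11, ATF4 and ASNS whatever their values.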

Additional observations from a re-analysis of the deposited data

How the results depend on the processing

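Precision was limited by the number of libraries and by shCtrl 3, and for members under 1 CPM by depth. Over all 6 libraries 0 genes passed in edgeR (1585 at an unadjusted p under 0.05), also with limma-voom (1473), while DESeq2 called 35, of which 0 were among the 18 members with an adjusted p (it gave none for the other 12). Leaving out each library in turn gave 0 to 4945 genes and 0 to 23 members past the threshold, above 0 only without shCtrl 3, and a members' median log2 fold change of 0.26 to 0.73. Under the other scalings, filters and tools that median was 0.41 to 0.51. The fit with the replicate block called 0 members (3 at an unadjusted p under 0.05, against 9 without it), with a median of 0.52. Deviations of same-numbered libraries from their group means correlated at −0.39, −0.58 and −0.68. With 3 libraries a group, these values depend mostly on shCtrl 3 and shDNAJC2 3, the libraries that stood apart. They could therefore not show whether the numbers pair the libraries. The sign of SLC7A14 turned with upper quartile scaling (−0.00019), limma-voom (−0.021) and the replicate block (−0.0064), and that of SLC3A1 with upper quartile scaling (−0.016). Leaving out single libraries turned the sign of SLC1A2 (−0.26 to 0.028), SLC36A1 (−0.035 to 0.15), SLC38A7 (−0.094 to 0.038), SLC3A1 (−0.13 to 0.11) and SLC7A14 (−0.25 to 0.19). The cause was not tested. The other 25 tested members kept their direction in every fit that tested them.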
